A study of Mus musculus with 4 samples.

Results

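The cartilage program genes examined here were *Sox9*, *Sox5*, *Sox6*, *Acan*, *Hapln1*, *Matn1*, *Matn3*, *Comp*, *Chad* and *Lect1*. They were found by symbol, and all 10 were among the 28006 features counted. They were followed across cell types and between ablated and control femurs. Cells came from Cxcl12-iCreER; R26R(tdTomato/+) mice that received tamoxifen 7 days before the marrow of the right femur was removed mechanically. Lineage-marked Cxcl12CE-tdTomato+ cells were sorted 7 days after ablation from the ablated femur (ABL) and from the untouched contralateral femur (CONT). Each of 2 biological replicates gave 1 CONT and 1 ABL library, replicate 1 with Chromium chemistry version 2 and replicate 2 with version 3. All 4 libraries shared the genotype, the tamoxifen pulse, the sort, and the removal of the distal growth plate and proximal end of the bone before dissociation. The recombinase is driven by *Cxcl12* and so is meant to mark cells that used this gene at the time of tamoxifen, and several mice were pooled in replicate 1. The paper reports that a substantial part of the sorted cells lay in clusters without detectable *tdTomato*, among them myeloid, lymphoid and erythroid cells. Blood cells described here are therefore not taken as lineage-marked.

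Cartilage matrix is built around fibrils of type II collagen that hold aggrecan, the large proteoglycan encoded by *Acan*. SOX9 switches on most genes of this matrix in chondrocytes, and SOX5 and SOX6 act beside it. Growth plate cartilage and the articular cartilage of the joint surface share this core but differ in other genes: *Matn1* marks growth plate cartilage, and *Prg4*, which encodes lubricin, marks the joint surface.

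Between 22889380 and 44784072 UMIs (single counted RNA molecules) were held per library. Called cells numbered 3433 (CONT) and 1459 (ABL) in replicate 1 and 2404 (CONT) and 2537 (ABL) in replicate 2, of which 1297, 681, 2053 and 1808 were mesenchymal. Where 4 values stand in a row, they follow this order of libraries. The mesenchymal cells of CONT replicate 2 included a cluster of 73 cells named Schwann-like in a first clustering. No cluster received that name when the mesenchymal cells were clustered again. Levels are given as CPM, the UMIs of a gene per 1000000 UMIs of the cells named. The ABL library of replicate 2 stood apart. It held 188 joint-lining-like cells, 55 tendon-like cells and 364 cells of an unnamed cluster led by *Comp*, *Fmod* and *Msmp*, and CONT replicate 2, clustered with it, held none. Replicate 1 was clustered on its own, and no cluster of it was given these names. With the cell filter of the study alone, 14 cells of CONT replicate 2 fell in the joint-lining-like cluster. *Xist*, which is transcribed from the inactive X chromosome, was found in 71.9% of mesenchymal cells of CONT replicate 2 and in 0.0553% of those of ABL replicate 2, against 49.8% of CONT and 81.3% of ABL cells in replicate 1. Whether the libraries of replicate 2 came from the same mice was not tested. The difference in *Xist* runs along with condition in replicate 2, so animals and condition cannot be told apart there. The replicate block still treats these libraries as a pair. Cell barcodes shared between libraries numbered 5 for CONT and ABL of replicate 1, 1 for those of replicate 2 and 0 for every other pair.

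Cartilage gene levels were first compared over all mesenchymal cells, which asks whether marrow ablation was followed by more cartilage transcripts among marked cells. Of the 10 genes, 9 were higher in ABL than in CONT in both replicates, and *Matn1* was higher in replicate 1 only. Among all 13656 genes tested, 4170 were higher in both replicates. After adjustment over 13656 genes, only *Chad* passed the threshold of 0.05 (edgeR quasi-likelihood test with the replicate as a block), which is 1 of 10 where 1.53% of all genes tested were called higher in ABL. The median fitted log2 fold change of the 10 genes was 2.51, against -0.06 over all genes tested. In replicate 1 alone the median difference of the 10 genes was 0.92, and in replicate 2 alone it was 4.24. In bulk sums of this kind, more cells of a type and more RNA per cell cannot be told apart.

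**Figure D1:**
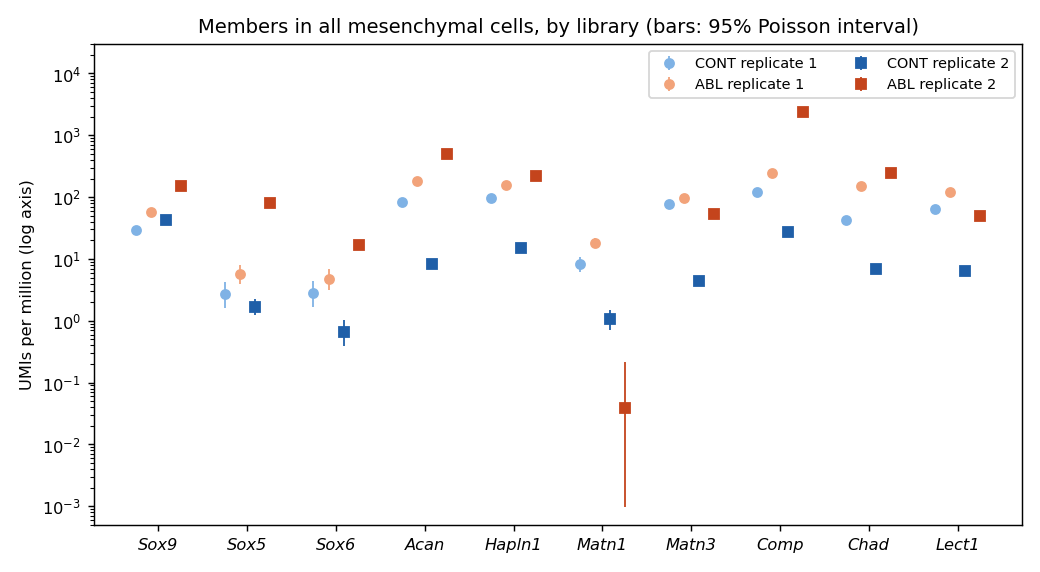
CPM of each gene (log axis) in all mesenchymal cells of each library, circles for replicate 1 and squares for replicate 2, blue for CONT and red for ABL, with 95% exact Poisson intervals. The intervals cover counting error only, not the spread between cells. For 9 genes the ABL point lies above the CONT point of its replicate, while *Matn1* in ABL replicate 2 rests on 1 UMI.

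Among the transcription factors, *Sox9* (chr11:112782224-112787760, + strand, GRCm38) reached 28.9 CPM in CONT and 57.3 CPM in ABL of replicate 1, and 43.2 and 152 CPM in replicate 2. *Sox5* (chr6:143828425-144781977, - strand) stood at 2.67 and 5.68 CPM in replicate 1 and at 1.70 and 79.9 CPM in replicate 2. *Sox6* (chr7:115470872-116038796, - strand) stood at 2.82 and 4.68 CPM in replicate 1 and at 0.652 and 16.8 CPM in replicate 2. In each gene ABL replicate 2 was the highest library. The log2 fold changes were 1.37 ± 0.45 (SE) for *Sox9*, 3.56 ± 0.93 for *Sox5* and 2.76 ± 0.89 for *Sox6*, and none passed (adjusted p = 0.149, 0.0726 and 0.138). Genes on the other strand overlap *Sox5* and *Sox6*, and whether counting used the strand is not given in the sources used here.

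The proteoglycan aggregate followed the same order of libraries within each replicate. *Acan* (chr7:79053483-79115099, + strand) was at 83.2 CPM in CONT and 183 CPM in ABL of replicate 1, and at 8.26 and 489.9 CPM in replicate 2. *Hapln1* (chr13:89539796-89611652, + strand), the link protein that fastens aggrecan to hyaluronan, was at 95.6 and 158 CPM in replicate 1 and at 15.3 and 221 CPM in replicate 2. Neither passed, with log2 fold changes of 3.47 ± 1.09 (adjusted p = 0.127) and 2.25 ± 0.74 (adjusted p = 0.145). CONT replicate 2 was the lowest library and ABL replicate 2 the highest in both genes.

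The remaining matrix proteins split into 2 patterns. *Comp* (chr8:70373558-70382066, + strand), a pentameric matrix protein of cartilage and tendon, was at 121 and 243 CPM in replicate 1 and at 27.6 and 2365 CPM in replicate 2, and its log2 fold change was 3.68 ± 1.38 (adjusted p = 0.206). *Chad* (chr11:94565047-94569127, + strand), a leucine-rich cell-binding protein, was at 43.3 and 154 CPM and at 6.81 and 243 CPM, and its log2 fold change was 3.46 ± 0.78 (adjusted p = 0.0414). For both, ABL replicate 2 was highest. By contrast, ABL replicate 1 was the highest library for *Matn3*, *Lect1* and *Matn1*. *Matn3* (chr12:8947929-8972028, + strand), a matrilin that links collagen fibrils, was at 78.7 and 96.8 CPM in replicate 1 and at 4.42 and 54.2 CPM in replicate 2. *Lect1* (chr14:79637690-79662170, - strand, named *Cnmd* in GENCODE M21) encodes chondromodulin, an inhibitor of vessel growth, and was at 65.4 and 121 CPM and at 6.34 and 48.9 CPM. *Matn1* (chr4:130944385-130955475, + strand) was at 8.30 and 18.0 CPM in replicate 1, and at 1.05 CPM (29 UMIs) in CONT and 0.0391 CPM (1 UMI) in ABL of replicate 2. All 29 UMIs in CONT replicate 2 lay in 1 cell. The groups overlapped in all 3 genes, and their log2 fold changes of 1.90 ± 0.72, 1.88 ± 0.55 and -0.72 ± 0.94 did not pass (adjusted p = 0.211, 0.105 and 0.788).

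In CONT replicate 2, 177 of the 188 *Chad* UMIs lay in 1 cell, of the chondrocyte-like class described below. The bulk test of *Chad* thus rests in part on that cell. The call of *Chad* also depended on the processing. Without the replicate block its adjusted p was 0.483, and after free RNA had been subtracted it was 0.154, with log2 fold changes of 3.02 and 3.50. After that subtraction 0.33% of genes were called higher, and none of the 10. In ABL replicate 2, the share subtracted would bring more *Lect1* and *Matn3* than was counted outside chondrocyte-like cells. The other 7 alternatives that gave a test kept it under 0.05. Without the block, 0 of 13656 genes passed in edgeR, 1227 had an unadjusted p under 0.05, and DESeq2 with the block called 620. The count of cartilage genes called also grew: 5 more passed with DESeq2, 6 more with the cell filter of the study, 3 more without doublets and 2 more in cells with a tdTomato UMI. The share of all genes called higher grew as well, to 2.85%, 3.24%, 3.12% and 2.51% in these 4 alternatives. *Acsf2*, on the other strand, overlaps *Chad*.

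The sequences just upstream of *Lect1* and *Matn3*, the pair of genes with the most alike levels over classes and libraries, and of *Chad*, the gene called in all mesenchymal cells, are shown for context. Promoters of 8 of the 10 genes were matched in the RefSeq table used (GRCm38.p6), and those of *Sox9* and *Comp* were not analysed here. Each run is the 250 bases before a transcription start, read 5′ to 3′ on the strand of the gene, from chr14:79662184-79662433 (- strand), chr12:8947679-8947928 (+ strand) and chr11:94564797-94565046 (+ strand). Capitals mark TATAAA, the letters of a TATA box, found on either strand.

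Lect1: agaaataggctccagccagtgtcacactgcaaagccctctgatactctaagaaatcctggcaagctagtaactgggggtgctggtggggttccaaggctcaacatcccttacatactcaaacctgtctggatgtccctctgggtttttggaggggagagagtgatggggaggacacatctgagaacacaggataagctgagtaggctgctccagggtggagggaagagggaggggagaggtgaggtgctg
Matn3: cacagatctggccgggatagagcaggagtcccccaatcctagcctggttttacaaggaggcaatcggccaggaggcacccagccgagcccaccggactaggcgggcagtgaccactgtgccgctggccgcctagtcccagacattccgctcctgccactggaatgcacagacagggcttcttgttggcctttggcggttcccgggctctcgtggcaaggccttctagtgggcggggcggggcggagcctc
Chad: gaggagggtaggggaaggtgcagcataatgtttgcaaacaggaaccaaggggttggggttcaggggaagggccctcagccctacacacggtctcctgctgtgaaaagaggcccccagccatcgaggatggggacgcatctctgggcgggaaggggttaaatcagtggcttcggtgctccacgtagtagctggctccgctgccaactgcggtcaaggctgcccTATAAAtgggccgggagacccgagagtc

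In *Chad*, TATAAA began 28 bases before the start, and 12.4% of 32851 promoters of the same length held it on either strand. The letters ACAATG or ACAAAG, forms of the core that SOX proteins bind, were searched on both strands and occurred in 25.2% of all promoters. They were in 6 of the 13 promoters of the 8 genes, 5 of which belonged to *Sox6* (6 promoters) and 1 to *Sox5*, and in none of the 3 runs printed. A match is a description of letters, and nothing about binding follows from its presence or absence.

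Cells that carried the program most strongly formed 1 cluster in each replicate, called chondrocyte-like from *Col2a1*, *Col9a1*, *Col9a2*, *Col9a3*, *Col11a2*, *Snorc*, *Ucma* and *Epyc*. The 10 genes were left out of the genes that formed and named these clusters. Replicate 1 held 8 cells of this class in CONT (0.617% of its mesenchymal cells) and 20 in ABL (2.94%). Replicate 2 held 1 in CONT (0.0487%) and 71 in ABL (3.93%). Of the 20 cells in ABL replicate 1, 4 had *Col2a1* at only 15.9 CPM, against 54390 CPM in the other 16. By this marker the class name does not hold for those 4, which stay in the shares and levels given here. With 8 and 1 cells in CONT, no comparison of conditions within this class was tested. After thinning to 2000 UMIs per cell, the median number of the 10 genes detected per cell was 8 (CONT) and 6.5 (ABL) in replicate 1 and 5 in ABL of replicate 2, against 0 in reticular cells of every library.

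In replicate 1, these few cells held most transcripts of the matrix genes. They held 98.2% (CONT) and 96.1% (ABL) of all mesenchymal *Acan* UMIs, and between 96.0% and 98.8% of those of *Hapln1*, *Matn1*, *Matn3*, *Chad* and *Lect1*, but 86.8% (CONT) and 81.1% (ABL) of those of *Comp*. In CONT replicate 2, the 1 chondrocyte-like cell held 177 of 188 *Chad*, 213 of 228 *Acan* and 420 of 422 *Hapln1* UMIs. It also held 173 of 175 *Lect1*, 117 of 122 *Matn3* and 29 of 29 *Matn1* UMIs. The levels of these genes over all mesenchymal cells of that library thus rest largely on 1 cell. In ABL replicate 2 the genes parted. Chondrocyte-like cells held 94.4% of *Lect1* and 90.0% of *Matn3* UMIs there, but 65.2% of *Chad*, 56.6% of *Hapln1*, 30.5% of *Acan* and 22.9% of *Comp* UMIs. The transcription factors were the least concentrated: chondrocyte-like cells held 31.8%, 52.5%, 4.11% and 21.4% of *Sox9* UMIs in the 4 libraries. In CONT replicate 2, reticular cells, which made up 95.1% of mesenchymal cells, held 89.6% of *Sox9* UMIs.

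**Figure D2:**
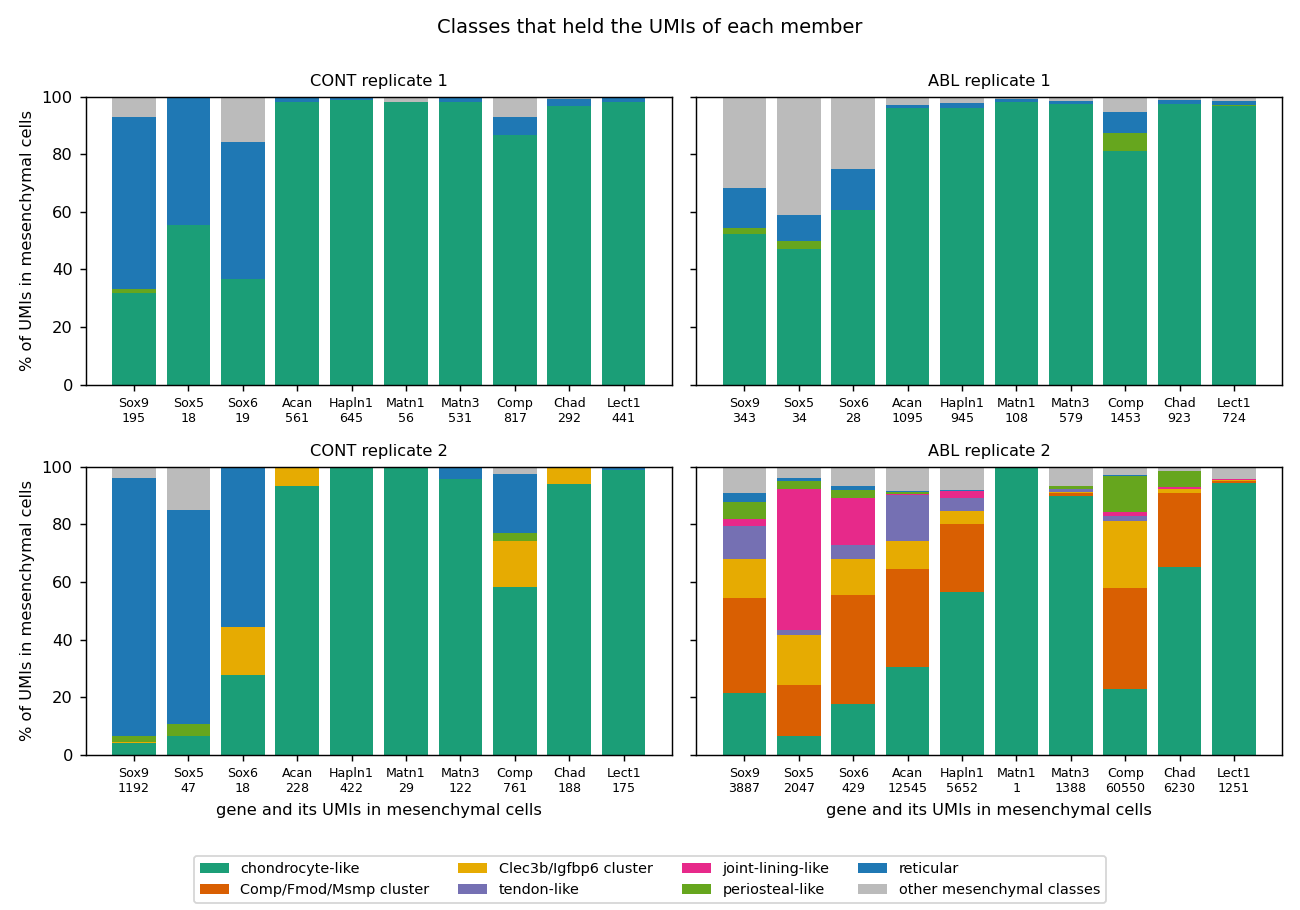
Share of each gene's UMIs in mesenchymal cells that lay in each class, 1 panel per library, with the number of UMIs under each gene. Chondrocyte-like cells fill the *Acan* bar in replicate 1 (98.2% and 96.1%) and a smaller part of it in ABL replicate 2 (30.5%), where the bars of *Lect1* and *Matn3* stay at 94.4% and 90.0%.

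Chondrocyte-like cells of ABL replicate 2 differed in make-up from those of the other 3 libraries. *Matn1*, the gene of growth plate cartilage, was at 468 CPM (CONT) and 319 CPM (ABL) in replicate 1, at 645 CPM in the 1 cell of CONT replicate 2, and at 0.726 CPM (95% exact Poisson interval 0.0184 to 4.05) in ABL replicate 2. *Prg4* had 0 UMIs in both CONT libraries, stood at 3.01 CPM (1 UMI) in ABL replicate 1, and reached 5362 CPM in ABL replicate 2. *Cilp*, a protein of the middle zone of articular cartilage, had 0 UMIs in the first 3 libraries and stood at 1186 CPM in ABL replicate 2. *Lect1* and *Matn3* were also lowest there, at 857 and 907 CPM, where the other libraries ranged from 2112 to 3849.6 CPM for *Lect1* and from 1699.6 to 4439.7 CPM for *Matn3*. *Comp* was at 10074 CPM in ABL replicate 2 and at 9879.8 CPM in the single cell of CONT replicate 2, against 6030.2 and 3553 CPM in replicate 1. *Sox9* ranged from 527 to 603 CPM in the 3 libraries with several cells, and their intervals overlapped. Replicate, chemistry, animals and condition cannot be told apart in these differences.

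**Figure D3:**
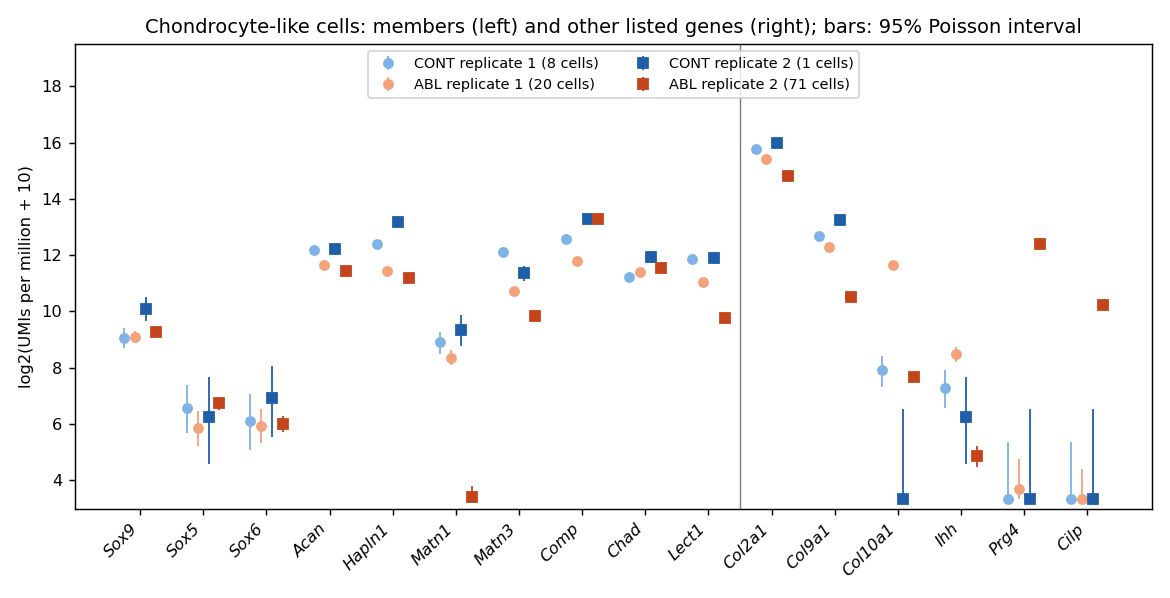
Levels, as log2(CPM + 10), of the 10 genes (left of the line) and of 6 other listed genes in chondrocyte-like cells of each library, with 95% exact Poisson intervals, which cover counting error only. ABL replicate 2 lies at the floor for *Matn1* (1 UMI) and far above the other libraries for *Prg4* (5362 CPM) and *Cilp* (1186 CPM).

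The 71 chondrocyte-like cells of ABL replicate 2 were themselves mixed. *Lect1* was detected in 34 of them, and 26 of these 34 also held *Matn3*, while 7 of the 37 cells without *Lect1* did. *Acan* and *Comp* were detected in all 71. *Prg4* stood at 2034 CPM in the cells with *Lect1* and at 9766 CPM in those without, and *Cilp* at 277 and 2390 CPM. Median depth was 23418 UMIs in the cells with *Lect1* and 13299 in those without, and the part of depth in this division was not tested. In ABL replicate 1, 15 of the 16 cells with *Lect1* held *Matn3*, and 4 cells had no *Lect1*. Those 4 cells had *Acan* at 31.9 CPM and *Comp* at 15.9 CPM, against 3902 and 4378 CPM in the 16 with *Lect1*.

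Hypertrophic genes, which mark the last stage of growth plate chondrocytes, were spread unevenly too. In chondrocyte-like cells of replicate 1, *Col10a1* stood at 229.6 CPM in CONT (27 UMIs) and 3176 CPM in ABL (1054 UMIs). In replicate 2 it stood at 195 CPM in ABL, and the CONT cell had 0 UMIs. Of the cells with *Lect1* in ABL replicate 1, 6 of 16 held *Col10a1*, against 2 of 8 in CONT. *Ihh*, the signal of prehypertrophic cells, was at 145, 347, 66.8 and 18.9 CPM in the 4 libraries.

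Outside chondrocyte-like cells, cartilage matrix transcripts were rare in 3 libraries and frequent in ABL replicate 2. *Acan* was at 1.51 CPM in CONT and 7.61 CPM in ABL of replicate 1, and at 0.544 and 360.1 CPM in replicate 2. *Hapln1* was at 1.21 and 6.72 CPM and at 0.0726 and 101 CPM, and *Comp* at 16.3 and 48.5 CPM and at 11.5 and 1926 CPM. *Hapln1* in CONT replicate 2 rested on 2 UMIs. *Chad* was at 1.51, 4.07, 0.399 and 89.6 CPM and *Sox5* at 1.21, 3.18, 1.60 and 79.0 CPM in the 4 libraries. All 5 genes lay above both CONT libraries in ABL replicate 1 as well, but far below ABL replicate 2. For *Chad* and *Sox5* the exact Poisson intervals of CONT and ABL in replicate 1 overlapped. *Sox9* was at 28.8 CPM in ABL replicate 1, below the 41.5 CPM of CONT replicate 2. The 5 genes named are also those called in the test that follows. How many of all genes had this order was not counted, so it is a description only. With chondrocyte-like cells left out, 9 of the 10 genes could be tested, and 5 rose in ABL, where 3.13% of all genes tested did. They were *Hapln1* (log2 fold change 6.41 ± 1.17, adjusted p = 0.002), *Sox5* (4.09 ± 0.78, adjusted p = 0.00285), *Acan* (6.25 ± 1.26, adjusted p = 0.00424), *Chad* (5.05 ± 1.06, adjusted p = 0.00588) and *Comp* (4.47 ± 1.25, adjusted p = 0.0387). *Lect1* (3.22 ± 0.95), *Matn3* (2.94 ± 0.96), *Sox6* (2.74 ± 0.96) and *Sox9* (1.04 ± 0.45) did not pass. Estimated from haemoglobin genes, free RNA made up 9.97% of mesenchymal UMIs in ABL replicate 1, which would bring 6.67 CPM of *Acan*, 5.31 CPM of *Hapln1* and 6.19 CPM of *Chad*, close to or above the levels counted there, and 8.50 CPM of *Comp* and 0.189 CPM of *Sox5*. In ABL replicate 2 it was estimated at 20.2% of mesenchymal UMIs. That share would bring 65.8 CPM of *Acan*, 55.9 CPM of *Hapln1*, 39.4 CPM of *Chad*, 329.5 CPM of *Comp* and 5.88 CPM of *Sox5*. It would also bring 17.2 CPM of *Lect1* and 507 CPM of *Col2a1*, where 2.89 and 182 CPM were counted outside chondrocyte-like cells. The estimate is thus too large for these cells, and the part of free RNA in the levels of the 5 genes there was not tested. Free RNA itself, measured in droplets with at most 300 UMIs, was at 326 CPM for *Acan*, 277 CPM for *Hapln1* and 1634 CPM for *Comp* in ABL replicate 2, and at most 66.9, 53.3 and 85.3 CPM in the other libraries.

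In ABL replicate 2, *Acan* levels differed widely between classes. *Acan* was at 1472 CPM in tendon-like cells, 830.4 CPM in the *Comp*/*Fmod*/*Msmp* cluster, 629 CPM in cycling cells, a cluster whose leading genes also included *S100a8* and *Col2a1*, and 226 CPM in an unnamed cluster led by *Clec3b* and *Igfbp6*. Against this, it was at 45.8 CPM in periosteal-like, 16.7 CPM in joint-lining-like and 3.41 CPM in reticular cells. Osteoblast-like cells (30.7 CPM) and mural cells (7.37 CPM) lay between the last 3. The 95% exact Poisson intervals of the 4 highest classes overlapped with no other named here, while those of osteoblast-like cells overlapped with periosteal-like and joint-lining-like cells, and those of mural cells with joint-lining-like and reticular cells. After thinning, 26.4% of mesenchymal cells of ABL replicate 2 (median 12891 UMIs before thinning) held an *Acan* UMI, against 0.380% of granulocyte-like cells (median 9297 UMIs). Unthinned, these shares were 44.3% and 2.66%.

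*Acan* outside chondrocyte-like cells was seldom accompanied by type II collagen. Of 409 such cells with an *Acan* UMI after thinning in ABL replicate 2, 47 held a *Col2a1* UMI (11.5%), while 60 of 69 chondrocyte-like cells with *Acan* did (87.0%). In ABL replicate 1, 1 of 14 and 15 of 16 cells did. *Col2a1* was among the markers that named the chondrocyte-like class and was not left out of the clustering. The contrast between the classes was thus in part set in advance and is a description only. How many cells without *Acan* held *Col2a1* was not counted. The *Comp*/*Fmod*/*Msmp* cluster had *Comp* at 4106 CPM and *Chad* at 311 CPM, but *Lect1* at 1.55 CPM and *Matn3* at 2.32 CPM. In tendon-like cells *Chad* had 0 UMIs, which allows up to 2.20 CPM (3 counts), where *Comp* was at 837 CPM and *Sox9* at 318 CPM. Periosteal-like cells had *Comp* at 3280.4 CPM in ABL replicate 2 and 1352 CPM in ABL replicate 1 (11 cells), against 29.3 CPM in CONT replicate 2 and 0 UMIs in CONT replicate 1 (8 cells).

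**Figure D4:**
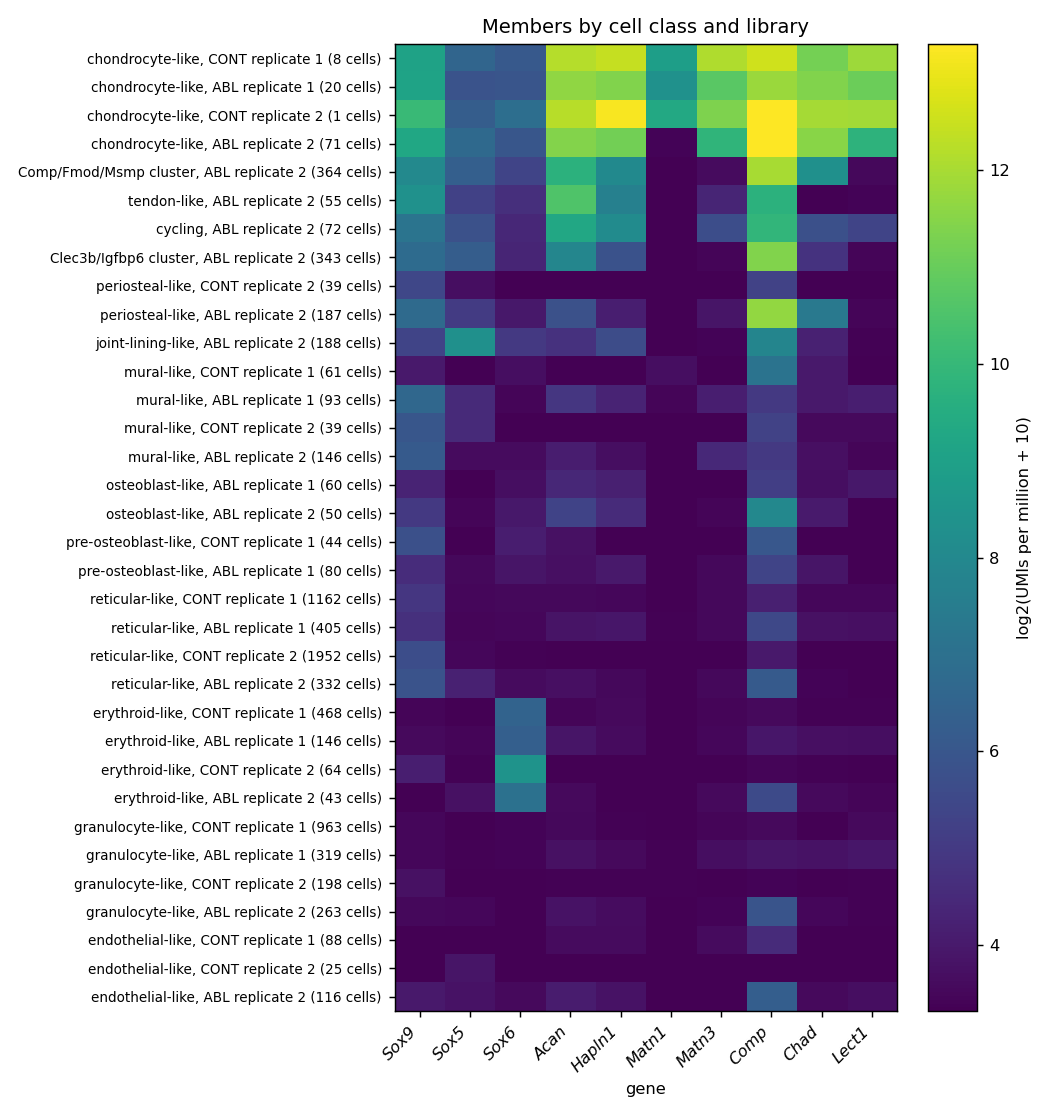
Levels of the 10 genes, as log2(CPM + 10), in each class and library with at least 20 cells, and in chondrocyte-like cells of every library. Apart from chondrocyte-like cells, *Acan* and *Comp* are bright in the *Comp*/*Fmod*/*Msmp* cluster (830.4 and 4106 CPM), *Sox5* in joint-lining-like cells (314 CPM) and *Sox6* in erythroid-like cells (71.7 to 339 CPM).

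Each SOX gene had its own spread over classes. *Sox5* was highest in joint-lining-like cells of ABL replicate 2, at 314 CPM (95% exact Poisson interval 295 to 334), against 97.3 CPM (81.5 to 115) in chondrocyte-like cells of that library, and joint-lining-like cells held 48.9% of its *Sox5* UMIs. *Sox9* was at 30.8 CPM in the same joint-lining-like cells, below the 603 CPM of chondrocyte-like, 318 CPM of tendon-like and 248 CPM of *Comp*/*Fmod*/*Msmp* cells. *Sox9* was also found in mural cells, which line vessels, at 6.02, 90.3, 53.8 and 61.8 CPM in the 4 libraries.

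*Sox6* was found outside the skeleton as well. In erythroid-like cells, where SOX6 is known to help silence embryonic globin genes, it stood at 81.0 CPM in CONT and 71.7 CPM in ABL of replicate 1, and at 339 and 122 CPM in replicate 2. Granulocyte-like cells of the same libraries were at 0.796, 0.709, 0 and 0 CPM. After thinning, between 13.7% (ABL replicate 1) and 45.3% (CONT replicate 2) of erythroid-like cells held a *Sox6* UMI, and at most 0.208% of granulocyte-like cells did. Unthinned, the shares were 52.8%, 45.9%, 93.8% and 76.7% of erythroid-like cells. *Sox5* and *Sox9* were at no more than 3.72 and 7.75 CPM in erythroid-like cells of any library.

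Reticular cells, the Cxcl12-rich stroma that made up 18.4% to 95.1% of mesenchymal cells, carried little of the program. Only *Acan*, *Comp* and *Sox9* passed the filter on low counts there. *Sox9* was at 19.9 CPM in CONT and 15.8 CPM in ABL of replicate 1 and at 41.3 and 48.1 CPM in replicate 2, and did not pass (log2 fold change -0.11 ± 0.25, adjusted p = 0.914). *Comp* was at 8.57 and 34.8 CPM and at 5.99 and 61.3 CPM, and *Acan* at 1.54 CPM (9 UMIs) and 4.27 CPM (13 UMIs) in replicate 1, with 0 UMIs in CONT and 3.41 CPM (9 UMIs) in ABL of replicate 2. Both rose in ABL, by 2.67 ± 0.27 (adjusted p = 9.81e-21) and 3.11 ± 0.87 (adjusted p = 0.0117) on the log2 scale, where 2.46% of 11420 genes tested were called higher. The value of *Acan* depends on the prior count of the fit, since CONT replicate 2 held none. *Acan* also passed the filter on low counts through the ABL libraries alone. Its call is therefore not independent of that filter.

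Neither call was kept without the replicate block, where 0 of all 11420 genes tested passed. Granulocyte-like cells, which should lack both proteins, had *Comp* at 1.86, 4.96, 0.582 and 50.6 CPM and *Acan* at 1.59, 3.55, 0.291 and 4.08 CPM in the 4 libraries. Reticular cells lay below these *Acan* levels in 3 libraries and above in ABL replicate 1, and above these *Comp* levels in all 4 libraries. For *Comp* the classes lay closest in proportion in ABL replicate 2, at 61.3 CPM in reticular and 50.6 CPM in granulocyte-like cells. Free RNA was estimated at 9.17%, 13.8%, 0.939% and 25.9% of reticular UMIs. In ABL replicate 2 this share would bring 423 CPM of *Comp* and 84.4 CPM of *Acan*, more than the 61.3 and 3.41 CPM counted, so a fit after its subtraction (*Comp* 0.40 ± 0.78, adjusted p = 0.900, with *Acan* under the filter) removed more than was there and does not test the calls. In replicate 1 it would bring 3.15 CPM (CONT) and 11.8 CPM (ABL) of *Comp*, below the levels counted, and 1.67 and 9.23 CPM of *Acan*, above them. The call of *Acan* was lost with DESeq2 (adjusted p = 0.969), at cluster resolution 0.4 (adjusted p = 0.194), in cells with a tdTomato UMI (adjusted p = 0.0724) and with the cell filter of the study (adjusted p = 0.0525). In replicate 1 alone, the log2 differences were 1.88 for *Comp* and 1.30 for *Acan*, and in replicate 2 alone 3.28 and 5.98. Both differences of *Comp* lay further from its fitted 2.67 than the SE of 0.27, so its small adjusted p does not measure the spread between replicates. The levels of *Hapln1*, *Chad*, *Lect1*, *Matn1* and *Matn3* in reticular cells were at most 5.26, 3.62, 3.29, 0.329 and 1.64 CPM in any library, and those of *Sox5* and *Sox6* at most 9.09 and 2.27 CPM.

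Other cartilage genes were counted in the same fits. Of all 13656 genes tested over all mesenchymal cells, 1.53% were called higher in ABL. Over all mesenchymal cells, 1 of 6 cartilage collagens was called, *Col11a2* (log2 fold change 2.89 ± 0.67, adjusted p = 0.0444), and *Col2a1* was at 2.60 ± 0.96 without passing (adjusted p = 0.194). *Col11a2* was also among the 10 leading genes of the osteoblast-like clusters of both replicates. Osteoblast-like cells made up 0.694%, 8.81%, 0.0974% and 2.77% of mesenchymal cells in the 4 libraries, and their part in this call was not tested. Of 6 hypertrophic genes, 3 rose: *Col10a1*, which encodes type X collagen (5.86 ± 0.58, adjusted p = 0.00106), *Ihh* (3.08 ± 0.63, adjusted p = 0.0283) and *Panx3*, a channel protein (2.64 ± 0.47, adjusted p = 0.0173), which was named after its value was seen. *Col10a1* was at 4.45, 185, 0.0725 and 11.0 CPM in the 4 libraries, so both ABL libraries lay above both CONT libraries. Among chondrocyte-like cells of ABL replicate 1, 6 of 16 with *Lect1* and 1 of 4 without held *Col10a1*. In ABL replicate 2, 5 of 34 and 2 of 37 did, so the call rests largely on few cells. *Panx3* was also called with chondrocyte-like cells left out, and the part of osteoblast-like cells in its call was not tested either. None of 10 other matrix genes passed, the largest fold changes being those of *Cilp* (4.62 ± 1.21, and 1.65 in replicate 1 alone) and *Fmod* (4.36 ± 1.25, and 1.67 in replicate 1 alone), nor did any of 8 genes of proteoglycan synthesis, led by *Xylt1* (1.48 ± 0.46) and *Csgalnact1* (1.45 ± 0.53).

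Growth plate signalling had 8 of 9 genes tested and 1 called, where 1.53% of all genes tested were called higher. This was the receptor gene *Bmpr1b*, with 0 UMIs in both CONT libraries, 4 in ABL replicate 1 and 71 in ABL replicate 2, while *Gdf5*, which encodes a ligand of that receptor, was at 2.17 ± 0.89 without passing (adjusted p = 0.258). *Bmpr1b* passed the filter on low counts through the ABL libraries alone. Its call, here and with chondrocyte-like cells left out, is therefore not independent of that filter. The list medians of the fitted log2 fold change were 1.98 for collagens, 2.03 for hypertrophic genes, 2.02 for other matrix, 1.33 for signalling (also with *Bmpr1b* at its lower bound) and 0.47 for proteoglycan synthesis, against -0.06 over all genes tested. In replicate 1 alone they were 1.23, 1.87, 0.97, 0.57 and 0.43, and in replicate 2 alone 2.50, 2.17, 2.88, 2.09 and 0.97.

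With chondrocyte-like cells left out, 4 of 6 collagens rose (*Col11a1*, *Col11a2*, *Col9a1* and *Col9a3*, by 2.36 to 4.09 on the log2 scale), as did 3 of 8 other matrix genes, *Fmod* (5.40 ± 0.96), *Cilp* (4.31 ± 0.87) and 3110079O15Rik, also called *Snorc* (3.73 ± 0.83). Of 4 hypertrophic genes tested in these cells 1 rose, *Panx3* (3.56 ± 0.84), of 8 signalling genes 1, *Bmpr1b*, and of 8 genes of proteoglycan synthesis 0. Those of these genes outside the pair of largest fold changes in a list were named after their values were seen. Of all 13523 genes tested in this fit, 3.13% were called higher in ABL.

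Of all 11420 genes tested in reticular cells, 2.46% were called higher in ABL. Among the tested collagens 5 of 5 were called higher, led by *Col2a1* (2.81 ± 0.27, adjusted p = 6.67e-23) and *Col11a2* (2.30 ± 0.38, adjusted p = 2.33e-07). So were 2 of 5 other matrix genes, *Fmod* (2.85 ± 0.34) and 3110079O15Rik, also called *Snorc* (2.63 ± 0.56), and 1 of 4 hypertrophic genes, *Col10a1* (4.78 ± 0.87), while the collagenase gene *Mmp13* (1.01 ± 0.44) did not pass. Of 4 signalling genes, the receptor gene *Pth1r* (0.93 ± 0.26) rose and *Ptch1* (-0.55 ± 0.24) did not pass. Of 8 genes of proteoglycan synthesis none passed, the largest fold changes being those of *Xylt1* (0.72 ± 0.32) and *Chsy1* (0.42 ± 0.24). As with *Comp*, the small adjusted p of *Col2a1* does not measure the spread between replicates. Collagen levels were not set beside those of granulocyte-like cells. The free RNA share would bring 651 CPM of *Col2a1* to reticular cells of ABL replicate 2, where 28.0 CPM were counted, and 115 CPM to those of ABL replicate 1, where 82.5 CPM were counted. In CONT it would bring 21.9 CPM in replicate 1, where 21.6 CPM were counted, and 0.476 CPM in replicate 2, where 1.39 CPM were counted. After its subtraction 0 genes of these 5 lists or of the 10 cartilage program genes passed, where 0.775% of 10836 genes tested were called higher, and this count does not test the calls for the same reason.

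Across 28 sums of cells (classes with at least 20 cells in 1 library), the most alike levels among 8487 other genes were, for *Sox9*, those of *Capn6* (Pearson r = 0.898), *1500015O10Rik* (0.876) and *Twsg1* (0.874). For *Acan* they were *Fam180a* (0.952), *Capn6* (0.942) and *Ppa1* (0.926), and for *Comp* *Fxyd6* (0.913), *Fam180a* (0.889) and *Fmod* (0.873). Among the 10 genes, the closest pair was *Matn3* and *Lect1* (0.983), followed by *Acan* and *Hapln1* (0.962), and the most distant was *Sox5* and *Matn1* (0.213). Many of these sums came from the same 4 libraries, and most of the high *Acan* and *Comp* sums from ABL replicate 2, so these values are descriptions. Over the 16 sums without ABL replicate 2, left out after the data had been seen, r was 0.736 to 0.852 for the 3 genes named for *Sox9*, 0.936 to 0.981 for those of *Acan* and 0.757 to 0.882 for those of *Comp*. It was 0.994 for *Matn3* and *Lect1* and 0.825 for *Sox5* and *Matn1*. The closest pair was then *Matn1* and *Chad* (0.995), and the most distant was *Sox9* and *Sox6* (0.104). Of chondrocyte-like cells, only those of ABL replicate 1 (20 cells) entered these 16 sums. How far the high values of the matrix genes rest on that sum was not tested.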

How the data were processed

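Droplet single-cell RNA-seq was run on 4 libraries (Chromium version 2 or 3). UMI counts per gene and barcode were deposited by the authors, whose processing notes name Cell Ranger, Seurat and build mm10; whether counting used the strand is not given in the sources used here. The matrices held uncalled barcodes too. Cells were called with the gene and mitochondrial limits of the study plus a UMI floor. Mesenchymal cells were clustered per replicate in Seurat 5.3.0 (2000 variable genes, 30 components, resolution 0.8), and clusters were named from fixed markers; the margin of 0.1 between names was set after clusters were seen. Scrublet (scanpy 1.11.5) marked 113 of 9833 cells as doublets, which were kept. Counts were summed per library and tested with edgeR 4.0.16 (quasi-likelihood, TMM, replicate as a block, Benjamini-Hochberg); DESeq2 1.42.0 was an alternative. Free RNA came from droplets of at most 300 UMIs, scaled to haemoglobin genes. Shares after thinning used 2000 UMIs per cell, with 0 cells left out of the classes given. Intervals and floors cover counting error only.

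All 10 genes were named, with the pair of largest fold changes in each of 5 other lists. Members and lists were chosen with earlier results of these data known. Labels do not say that replicates are separate mice, so p-values refer to these libraries alone. With 4 libraries and a block, the fit draws the spread of each gene largely from values shared over genes. The SE and p-value of a gene can therefore understate the spread between its own replicates. Deviations of same-numbered libraries correlated at 0.73 in reticular and 0.43 in mesenchymal cells, which includes their shared chemistry. On simulated data with 200 genes changed by a log2 fold of 2, the test recovered 174 in reticular (11420 genes) and 57 in mesenchymal sums (13656 genes).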

Additional observations from a re-analysis of the deposited data

How the results depend on the processing

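The number of genes called in reticular cells was 539. It was 157 with DESeq2, 359 with the cell filter of the study alone, 184 after subtraction of free RNA and 237 at cluster resolution 0.4. In all mesenchymal cells it was 282, and 620 with DESeq2, 698 with the cell filter of the study alone, 647 without doublets, 508 in cells with a tdTomato UMI, 51 after subtraction of free RNA and 640 without chondrocyte-like cells. Without the replicate block, that is with the replicate number ignored, 0 genes passed in edgeR in either sum (330 and 1227 at an unadjusted p under 0.05). The log2 fold change of *Matn1* in mesenchymal cells then turned to 0.88. Chondrocyte-like cells held 91.4% (CONT) and 90.2% (ABL) of the UMIs of the 10 genes in replicate 1, and 51.2% and 30.2% in replicate 2. At resolutions 0.4 and 1.5 the share in ABL replicate 2 was 32.8%. At resolution 0.4 the shares of replicate 1 were 0% by naming alone: a cluster of 28 cells (8 CONT, 20 ABL) scored 0.98 for chondrocyte and 0.882 for cycling markers, just under the margin of 0.1, and stayed unnamed. Leaving out a replicate leaves 1 library per condition and gives no test. Thinning lowered 39 of 40 shares of cells with a UMI, 26 of them beyond the interval. In reticular cells the free RNA subtracted exceeded the counted level of several cartilage genes, so that setting does not test them. In ABL replicate 2, the mesenchymal share would also bring more *Lect1* and *Matn3* than was counted outside chondrocyte-like cells. The causes of the other changes were not tested, other than where fewer cells or genes enter by construction. With 2 libraries a group, and 8 and 1 chondrocyte-like cells in CONT, differences within that class were not tested.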
